A study of Homo sapiens with 10 samples.

Results

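Smad3 peaks that appeared in H441 cells after TTF-1 depletion at places where TTF-1 binds in undepleted cells were examined. Smad3 carries the TGF-β signal to DNA: it is activated by the receptors at the cell surface, forms complexes with Smad4, and binds DNA weakly by itself, so that partner transcription factors help to set where it sits. TTF-1 (NKX2-1) is the homeodomain transcription factor of the lung epithelial lineage, which activates surfactant genes in normal lung and stays active in many lung adenocarcinomas. The question here is what else is bound at sites that gain Smad3 when TTF-1 is depleted although TTF-1 binds there in undepleted cells.

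The sites were chosen from peak lists of chromatin immunoprecipitation with sequencing (ChIP-seq). A Smad3 peak of siTTF-1 cells was taken when it shared no base with a Smad3 peak of siControl cells or a Smad4 peak of siTTF-1 cells and at least 1 bp with a TTF-1 0 h peak. This gave 2512 of the 14145 Smad3 siTTF-1 peaks (17.8%), named gained TTF-1-site peaks here. The count depends on the length of the siTTF-1 list: 982 of them lay within its 8941 lowest-numbered peaks, the length of the siControl list. In the whole list 6944 peaks (49.1%) lacked a siControl peak and 62.5% had a TTF-1 0 h peak, and both criteria are part of the selection. Of the 2602 gained peaks with a TTF-1 0 h peak, 90 also had a Smad4 peak and were left out. The Smad4 siTTF-1 list holds only 1605 peaks, so a site without a Smad4 peak may still hold Smad4. The Smad4 list of siControl cells holds 1 peak, so Smad4 at these sites in siControl cells cannot be read from it.

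H441 and A549 are lung adenocarcinoma cell lines, the first positive and the second negative for TTF-1 per the labels. The groups were Smad3 in H441 after an siRNA against TTF-1 (siTTF-1), Smad4 in H441 after siTTF-1, TTF-1 in H441 at 1.5 h and 0 h, Smad3 in A549, and Smad3 and Smad4 in H441 after a control siRNA (siControl). All carry the label of 1 ng/ml TGF-β3 for 1.5 h, including the TTF-1 sample whose title says 0 h, and no siRNA is named for the TTF-1 and A549 samples. Each condition had 1 library, so no difference could be set against replicate spread, the depth is unknown, and the intervals below cover counting error over peaks only. No TTF-1 library of siTTF-1 cells was analysed here, so the TTF-1 that remained at these sites after depletion is not known.

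The gained TTF-1-site peaks mostly had high numbers in their list and were narrow. Each deposited list numbers its peaks from 1, and no source used here says what the number ranks. The median number of the gained TTF-1-site peaks was 10002.5, against 4790.5 for the 5552 Smad3 siTTF-1 peaks that were kept from siControl cells with a TTF-1 0 h peak and no Smad4 peak. The 4047 gained peaks with neither TTF-1 0 h nor Smad4 had a median of 9660. When the list was cut into 5 equal strata by peak number, the gained TTF-1-site peaks numbered 46, 288, 536, 776 and 866, from the lowest numbers to the highest, and their share of a stratum went up along the list, to 30.6% of the last one, with 1.63% of the first. The median width was 499 bp (quartiles 399 and 649 bp) for gained TTF-1-site peaks, against 649 bp for kept peaks with TTF-1 and 499 bp for gained peaks without TTF-1. The numbers and widths come from the library that defined the sites and are given as a description.

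The TTF-1 peaks under these sites likewise had higher numbers than those under kept Smad3 peaks. The TTF-1 0 h peak that shared the most bases with each site had a median number of 17744.5 of 31083 for gained TTF-1-site peaks and 7882 for kept peaks with TTF-1. Its median width under gained TTF-1-site peaks equalled that of the whole TTF-1 0 h list and lay below the 749 bp under kept peaks. With the TTF-1 0 h list also split into 5, a TTF-1 peak from its first stratum lay under 8.84% of the gained TTF-1-site peaks, against 42.6% of the kept peaks with TTF-1. Seen from TTF-1, gained TTF-1-site peaks were found at 3.54% of the TTF-1 0 h peaks of the first stratum and at 8.24%, 9.80%, 10.04% and 8.90% of those in the following strata. For kept peaks these shares were 37.2% in the first stratum and 6.37% in the last.

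**Figure D1:**
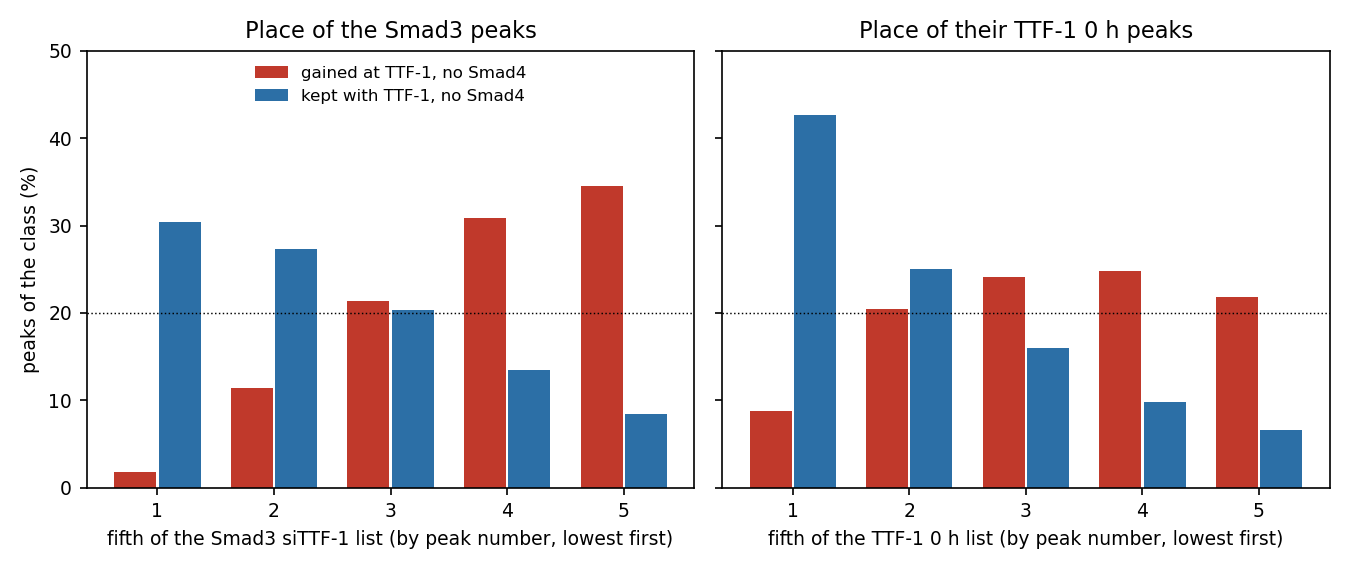
Share of each class (vertical axis, %) in 5 equal strata of the Smad3 siTTF-1 list (left) and, for the TTF-1 0 h peak under each site, of the TTF-1 0 h list (right), with the lowest peak numbers first. Red bars are the 2512 gained TTF-1-site peaks, blue bars the 5552 kept peaks with TTF-1 and no Smad4, and the dotted line marks an equal share in each stratum; red bars climb to 34.5% in the last Smad3 stratum, and blue bars are tallest in the first TTF-1 stratum, at 42.6%.

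The rule required Smad3 and TTF-1 to share a base at these sites, so the distances between them are a description. The centres of a gained TTF-1-site peak and of its TTF-1 0 h peak were a median of 50 bp apart (quartiles 25 and 100 bp), and those of kept peaks with TTF-1 also 50 bp (25 and 150 bp). Positions are deposited in steps of 50 bp, so these distances are at the resolution of the lists. In all, 77.1% of the gained TTF-1-site peaks and 68.6% of the kept peaks had their centre within 100 bp of the TTF-1 centre. The shared stretch had a median of 399 bp for gained TTF-1-site peaks and was longer for kept peaks, whose median width is larger. Of the gained TTF-1-site peaks, 1241 (49.4%) lay entirely inside a TTF-1 0 h peak and 172 (6.85%) had under 50% of their length in one, against 55.4% and 6.54% of the kept peaks. The 2512 sites met 2518 TTF-1 0 h peaks, and 46 of these (1.83%) also met a siControl Smad3 peak, a low share that the rule largely fixed by leaving out sites with siControl Smad3.

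**Figure D2:**
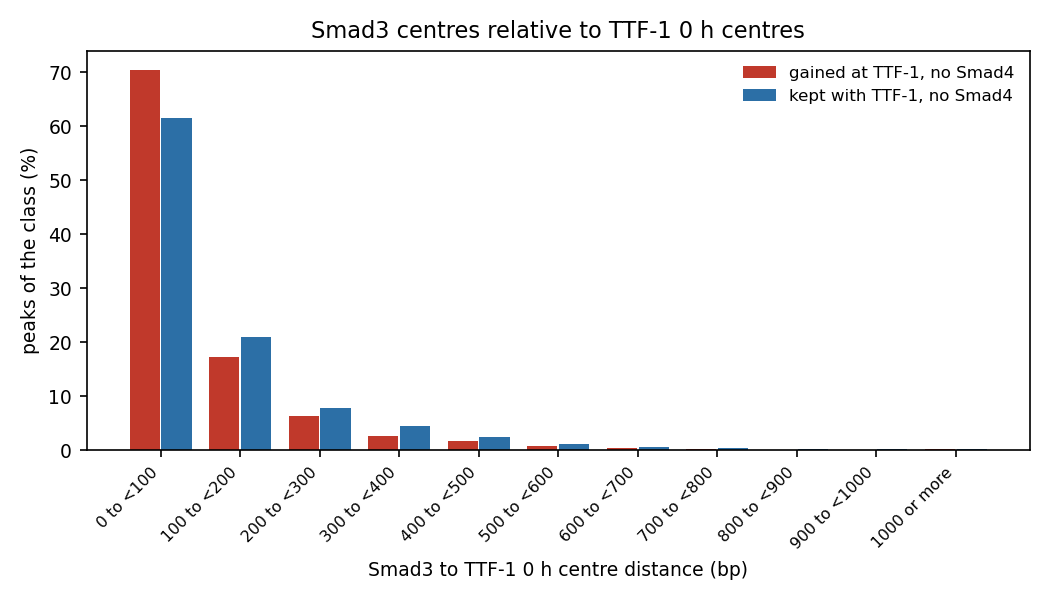
Distance between the centre of each Smad3 siTTF-1 peak and the centre of the TTF-1 0 h peak it overlaps most (horizontal axis, bp, in bins of 100 bp) as a share of the class (vertical axis, %). Red bars are gained TTF-1-site peaks and blue bars kept peaks with TTF-1 and no Smad4; 70.5% of the red class and 61.6% of the blue class fall in the first bin.

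The TTF-1 1.5 h library was not used to choose the sites and gave a second reading of TTF-1 there. Of the 2512 gained TTF-1-site peaks, 1628 (64.8%, exact binomial 95% interval 62.9 to 66.7) had a TTF-1 1.5 h peak, against 5032 of the 5552 kept peaks with TTF-1 (90.6%, 89.8 to 91.4). Over the whole Smad3 siTTF-1 list the share was 54.1%. Only 62.5% of that list had a TTF-1 0 h peak, which the rule required of every gained TTF-1-site peak. Their higher share is therefore partly set by the rule. Of all TTF-1 0 h peaks, 65.3% had a TTF-1 1.5 h peak. The difference between gained TTF-1-site and kept peaks was -25.8 percentage points (Newcombe 95% interval -27.9 to -23.8). It shrank to -9.53 points (-11.4 to -7.69) when peaks were compared within 5 strata of the TTF-1 0 h peak number (Mantel-Haenszel difference). That value pools unlike strata. In the first, 97.7% of gained TTF-1-site and 99.9% of kept peaks had TTF-1 at 1.5 h, and in the last 25.2% and 43.3%. Within 5 strata of the Smad3 peak number the difference was -25.4 points (-27.6 to -23.2). So the TTF-1 strata changed the difference by more than 1.5 times and the Smad3 strata did not. The 884 gained TTF-1-site peaks with no TTF-1 1.5 h peak lay on TTF-1 0 h peaks with a median number of 24506.5, and the 1628 others on ones with a median of 13746.5.

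The TTF-1 1.5 h share also moved with how much of the Smad3 peak lay under TTF-1. Coverage was not compared within strata of the TTF-1 0 h peak number, along which this share also fell. Along those strata the TTF-1 0 h peaks at gained sites narrowed from a median of 849 bp to 349 bp. It was 80.3% (78.0 to 82.5) for the 1241 gained TTF-1-site peaks entirely inside a TTF-1 0 h peak and 97.01% for the 3077 such kept peaks. Where 25% to under 50% of the Smad3 peak was covered, it was 32.9% (25.7 to 40.8) of 161 gained TTF-1-site peaks and 70.2% (64.9 to 75.1) of 325 kept peaks. The gained TTF-1-site peaks of the first Smad3 stratum, with the lowest numbers, overlapped TTF-1 at 1.5 h in 22 of 46 cases (47.8%, 32.9 to 63.1), against 1567 of 1689 kept peaks (92.8%, 91.4 to 93.97). In the last Smad3 stratum the shares were 66.5% (63.3 to 69.7) of 866 gained TTF-1-site peaks and 91.1% (88.2 to 93.5) of 472 kept peaks.

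**Figure D3:**
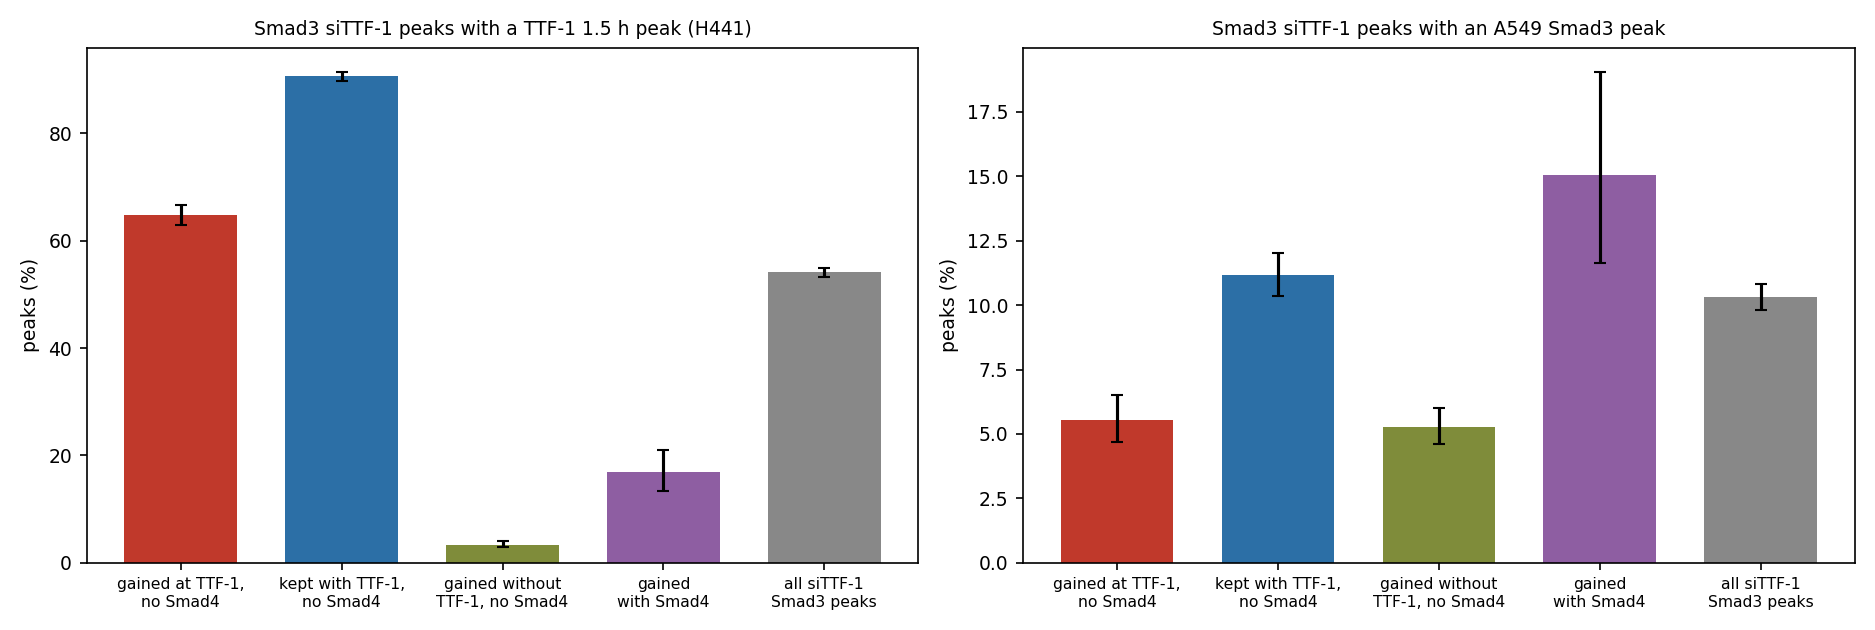
Share of peaks (vertical axes, %, scales differ) that overlap a TTF-1 1.5 h peak of H441 (left) or a Smad3 peak of A549 (right) for the gained TTF-1-site peaks, kept peaks with TTF-1, gained peaks without TTF-1, gained peaks with Smad4 and the whole Smad3 siTTF-1 list. Bars are shares of peaks of single libraries and lines exact binomial 95% intervals; the gained TTF-1-site peaks stand at 64.8% on the left, and on the right at 5.53%, next to 5.29% for gained peaks without TTF-1.

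Counted in TTF-1 peaks, TTF-1 at gained sites was called again at 1.5 h about as often as TTF-1 over the whole 0 h list. It was called again more often than TTF-1 without Smad3, and less often than TTF-1 under kept Smad3 peaks. Of the 2518 TTF-1 0 h peaks under a gained TTF-1-site peak, 1640 (65.1%, 63.2 to 66.99) were called at 1.5 h. The share was 90.1% (89.3 to 90.9) of the 5530 under a kept peak and 55.7% (55.03 to 56.4) of the 20692 with no Smad3 peak in either condition, and 65.3% over the whole TTF-1 0 h list. The difference between TTF-1 peaks at gained sites and those without Smad3 was 9.42 points (Newcombe 7.42 to 11.4), and 8.96 points (7.36 to 10.6) within 5 strata of the TTF-1 peak number. Among the TTF-1 0 h peaks of the first stratum, all 220 under gained TTF-1-site peaks were called again, and so were 2527 of the 2528 peaks without Smad3. In the third stratum, 79.3% (75.9 to 82.5) of those at gained sites and 69.4% (68.03 to 70.8) of those without Smad3 were called again, and in the last stratum 24.95% (21.4 to 28.8) and 12.9% (12.02 to 13.9).

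**Figure D4:**
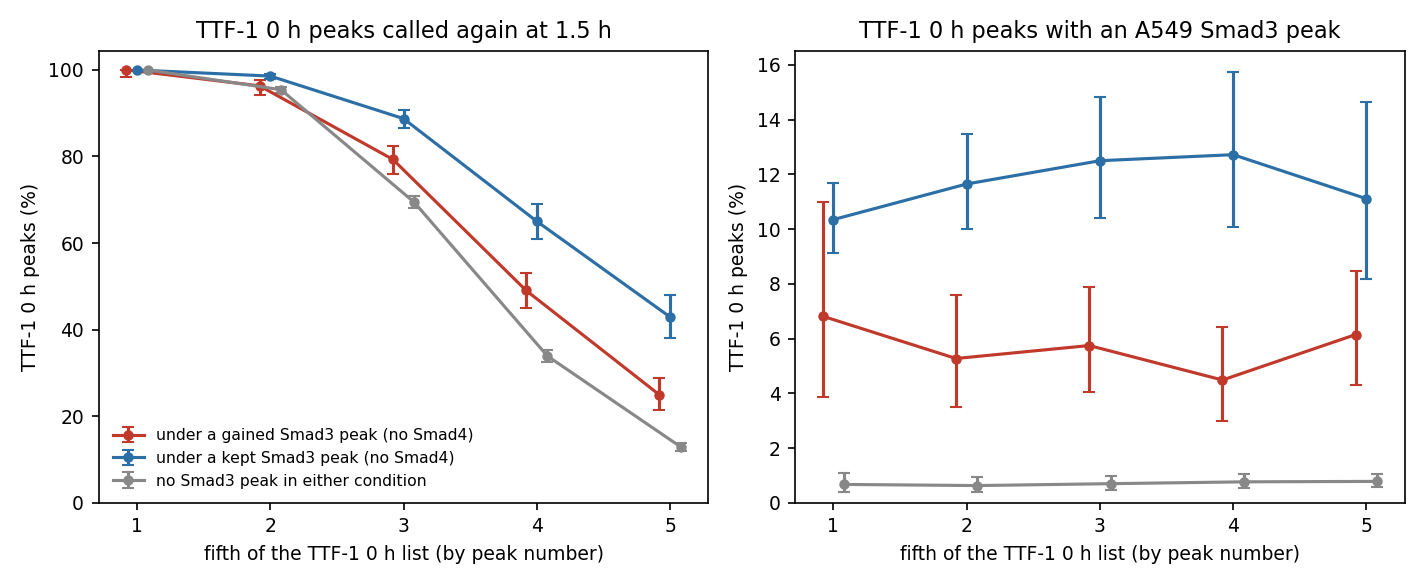
TTF-1 0 h peaks called again at 1.5 h (left) and TTF-1 0 h peaks with an A549 Smad3 peak (right), as shares (vertical axes, %, scales differ) in 5 equal strata of the TTF-1 0 h list by peak number (horizontal axes). Red points are TTF-1 peaks under a gained TTF-1-site peak, blue points under a kept Smad3 peak, grey points with no Smad3 peak, and lines exact binomial 95% intervals; in the last stratum the shares called again are 24.95%, 42.9% and 12.9%, and the A549 intervals within each class overlap along the list.

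A549 Smad3 peaks were found at 139 of the 2512 gained TTF-1-site peaks (5.53%, 4.67 to 6.50), against 620 of the 5552 kept peaks with TTF-1 (11.2%, 10.4 to 12.03) and 214 of the 4047 gained peaks without TTF-1 (5.29%, 4.62 to 6.02). Over the whole Smad3 siTTF-1 list the share was 10.3%. A549 cells lack TTF-1, so this list holds Smad3 peaks called in another lung adenocarcinoma line without that factor. It has only 2535 peaks, against 14145 in the Smad3 siTTF-1 list, so a site without an A549 peak may still hold Smad3 there. Between gained peaks with and without TTF-1 the difference was 0.25 points (Newcombe 95% interval -0.86 to 1.41), and no difference was detected. Against kept peaks with TTF-1 the gained TTF-1-site peaks were lower by a difference of -5.63 points (-6.82 to -4.38). Within 5 strata of the Smad3 peak number this became -0.41 points (-1.66 to 0.85), and a pooled difference was no longer detected. That value pools strata that went both ways. The gained TTF-1-site share lay below the kept share in the first stratum (6.52% against 19.0%), the second and the third. In the fourth and the last (4.16% against 2.54%) it lay above. The intervals of the separate shares overlapped in every stratum. Such overlap does not test the difference within a stratum, which was not computed. Within strata of Smad3 peak width the difference from kept peaks was -1.95 points (-3.15 to -0.75). Within strata of the TTF-1 0 h peak number it was -6.24 points (-7.64 to -4.85), and with Smad4 peaks let into both classes -8.49 points (-9.71 to -7.20). Gained peaks with Smad4 had an A549 peak in 58 of 385 cases (15.1%), so that the gained TTF-1-site peaks differed from them by -9.53 points (-13.5 to -6.16). The gained peaks with Smad4 also had lower Smad3 numbers (median 6716 against 10002.5) and were wider (median 649 against 499 bp). This difference was not compared within strata.

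The A549 share was lower in the last stratum of the Smad3 list than in the second in each of these classes. For the gained TTF-1-site peaks it was 6.52% (1.37 to 17.9) in the first stratum of the Smad3 list, 9.38% (6.27 to 13.3) in the second and 4.16% (2.93 to 5.71) in the last. Gained peaks without TTF-1 had 8.20% (6.07 to 10.8) in the second stratum and 3.18% (2.31 to 4.26) in the last. Kept peaks with TTF-1 had 19.0% (17.2 to 20.96) in the first stratum, 11.6% (9.98 to 13.3) in the second and 2.54% (1.32 to 4.40) in the last. Along the TTF-1 0 h list the share at gained TTF-1-site peaks ranged only between 4.50% and 6.39%, and the intervals of all 5 strata overlapped. The 1628 gained TTF-1-site peaks with TTF-1 at 1.5 h had an A549 share of 5.84% (4.75 to 7.09) and the 884 without it one of 4.98% (3.64 to 6.62), a difference of 0.86 points (-1.08 to 2.62). Of the TTF-1 0 h peaks, 139 of the 2518 at gained sites (5.52%, 4.66 to 6.49) had an A549 Smad3 peak, against 626 of the 5530 under a kept peak (11.3%, 10.5 to 12.2) and 149 of the 20692 without Smad3 in H441 (0.72%, 0.61 to 0.84). The share was 3.94% over the whole TTF-1 0 h list. Between TTF-1 peaks at gained sites and those without Smad3 the difference was 4.80 points (3.96 to 5.77). The former were chosen to have a Smad3 peak in H441 and the latter to have none. This difference in A549 Smad3 is therefore partly set by the selection.

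**Figure D5:**
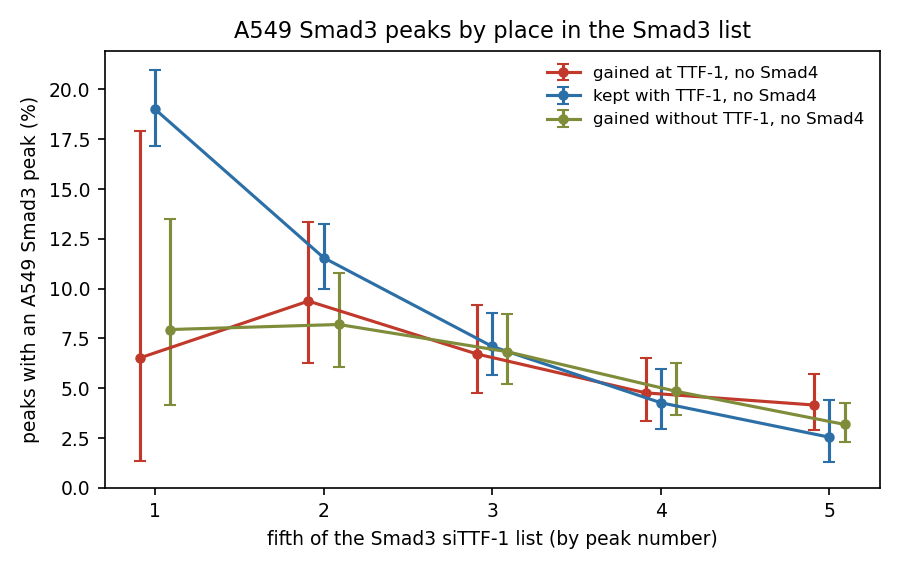
Share of Smad3 siTTF-1 peaks with an A549 Smad3 peak (vertical axis, %) in 5 equal strata of the Smad3 siTTF-1 list by peak number (horizontal axis). Red points are gained TTF-1-site peaks, blue points kept peaks with TTF-1, green points gained peaks without TTF-1, and lines exact binomial 95% intervals; in the last stratum the classes stand at 4.16%, 2.54% and 3.18% with overlapping intervals, and in the first stratum the kept peaks stand highest at 19.0%.

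Most of the gained sites had no siControl Smad3 peak within 10 kb, and 870 (34.6%) had none within 100 kb. These distances were not set against randomly placed sites. The nearest siControl Smad3 peak was a median of 46051 bp away from a gained TTF-1-site peak and 52501 bp from a gained peak without TTF-1, and 637 gained TTF-1-site peaks (25.4%) had one within 10 kb, against 21.9% of the gained peaks without TTF-1. Only 95 gained TTF-1-site peaks (3.78%) had a siControl peak within 500 bp. The TTF-1 1.5 h share was 68.4% (58.1 to 77.6) in these 95 and 64.6% (61.3 to 67.8) in the 870 that lay over 100 kb away. A lost siControl peak, one with no siTTF-1 counterpart, lay within 10 kb of 134 gained TTF-1-site peaks (5.33%) and of 2.74% of the gained peaks without TTF-1. A Smad4 siTTF-1 peak lay within 10 kb of 109 gained TTF-1-site peaks (4.34%) and of 7.34% of the gained peaks without TTF-1. Another peak of the same class lay within 10 kb for 254 of the gained TTF-1-site peaks (10.1%), and for 17.8% of the gained peaks without TTF-1, the larger class.

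The gained TTF-1-site peaks were spread over the chromosomes. Among the siTTF-1 Smad3 peaks with a TTF-1 0 h peak they made up 28.4% in all, from 23.9% (18.3 to 30.3) on chromosome 16 to 34.2% (30.7 to 37.9) on chromosome 2, leaving out chromosome Y with its single peak. Of the 1 Mb windows that held any, 737 held 1 and 377 held 2. The fullest windows held 9 each. They were 28000001 to 29000000 of chromosome 2 and 142000001 to 143000000 of chromosome 5. The window on chromosome 2 had 19 siTTF-1 and 10 siControl Smad3 peaks, and 6 of its 9 sites had a TTF-1 1.5 h peak. The window on chromosome 5 had 24 siTTF-1 and 8 siControl Smad3 peaks, and 7 of its 9 sites had a TTF-1 1.5 h peak and 2 an A549 peak. A pair of windows tied at 8 sites each. The window 176000001 to 177000000 of chromosome 3 had 11 siTTF-1 peaks and 1 siControl peak, and 7 of its 8 sites had a TTF-1 1.5 h peak and 0 an A549 peak. The window 29000001 to 30000000 of chromosome 8 had 27 siTTF-1 and 10 siControl peaks, and 4 of its 8 sites had a TTF-1 1.5 h peak and 2 an A549 peak.

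Of the 10 sites with the lowest Smad3 numbers, 9 sat on TTF-1 0 h peaks with high numbers, from 19167 to 29918. The first was number 421 on chromosome 9 (133851401 to 133852399, hg18), 999 bp wide, with a 299 bp TTF-1 0 h peak inside it at number 26812. Next came number 601 on chromosome 10 (70888101 to 70888999), which lay 501 bp from a siControl Smad3 peak, and number 909 on chromosome 14 (50994651 to 50995599). They were followed by numbers 1034 on chromosome 5 (143043101 to 143043699), 1184 on chromosome 19 (56882901 to 56884099) and 1191 on chromosome 4 (96224651 to 96225349). Number 1217 lay on chromosome 7 (7445051 to 7445499), 1369 on chromosome 4 (26179351 to 26180049), 1373 on chromosome 18 (50554901 to 50556699) and 1431 on chromosome 2 (217144551 to 217145499). Of these 10 sites, 5 had a TTF-1 1.5 h peak and none an A549 peak. In 7 of them under 50% of the Smad3 peak lay under TTF-1, while number 1431 coincided base for base with a TTF-1 0 h peak at number 9165.

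The sites on the TTF-1 0 h peaks with the lowest numbers were the reverse, narrow Smad3 peaks inside wide TTF-1 peaks. Smad3 peak number 10391 on chromosome 8 (119073551 to 119073799), 249 bp wide, lay inside TTF-1 0 h peak number 184, which was 1199 bp wide. The others were Smad3 number 9287 on chromosome 12 (98119101 to 98119449), inside TTF-1 number 429, number 13847 on chromosome 10 (23382001 to 23382349), inside TTF-1 number 446, number 12578 on chromosome 22 (37966801 to 37967149), inside TTF-1 number 450, and number 10897 on chromosome 2 (10642001 to 10642399), inside TTF-1 number 631. All 5 had a TTF-1 1.5 h peak, at numbers 345 to 884, and none had an A549 peak. The 5 widest sites, at Smad3 numbers from 1373 to 11740, had at most 27.7% of their length under the TTF-1 peak. They were 1999 bp on chromosome 14 (68083251 to 68085249), 1899 bp on chromosome 1 (115772401 to 115774299), the 1799 bp site on chromosome 18 given above, and 1549 bp on chromosomes 15 (84129651 to 84131199) and 8 (96181851 to 96183399). The widest lay 151 bp from a siControl Smad3 peak.

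Of the sites with an A549 Smad3 peak, the first by Smad3 number was number 1587 on chromosome 12 (62542251 to 62542749), whose centre coincided with that of TTF-1 peaks at both times. The next were number 2119 on chromosome 10 (73749051 to 73750149), 401 bp from a siControl peak, number 2148 on chromosome 4 (102357901 to 102358449), number 2970 on chromosome 8 (126594401 to 126595399) and number 2987 on chromosome 17 (53820051 to 53820699). Of these 5 sites, 2 had a TTF-1 1.5 h peak. The TTF-1 0 h peaks under all 5 stood at numbers 17870 to 30238.

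Measured in bases, few sites lay at the edge of the rule, while their count depended on the length of the siTTF-1 list, as given above. The smallest overlap with TTF-1 was 49 bp, in 3 sites: number 2148 on chromosome 4, given above, number 8968 on chromosome 1 (78242551 to 78243099) and number 13289 on chromosome 6 (133011751 to 133012199). Just outside, gained peaks on chromosomes 7 (34897601 to 34897899) and X (17423201 to 17423899) lay 1 bp from a TTF-1 0 h peak and one on chromosome 2 (195936951 to 195937749) lay 51 bp from it. Among gained peaks without Smad4 and TTF-1, 189 had a TTF-1 0 h peak within 500 bp. The sites closest to a siControl Smad3 peak lay 1 bp from it on chromosome 8 (80518151 to 80518499) and 51 bp from it on chromosomes 12 (81568501 to 81569099) and 3 (45957301 to 45957699). The sites closest to a Smad4 peak lay 251 bp from it on chromosomes 20 (25238051 to 25238799) and 21 (36496401 to 36496899) and 401 bp from it on chromosome Y (10646051 to 10646349).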

How the data were processed

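ChIP-seq peak lists of 7 libraries were used, and 3 input libraries are not analysed here. Per the labels, the false discovery rate of peak calling was limited to 1% (H441 Smad3, TTF-1), 10% (Smad4) and 5% (A549 Smad3). Per the submitters' processing notes, reads were placed on hg18; no source used here names the aligner or caller. The score the authors deposited was 1000 for every peak and was not used; the other deposited column is the peak number. Derived lists deposited with the series were recovered in full by a 1 bp overlap, and 1 track line was skipped. Positions count from 1, after adding 1 to the deposited start.

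Overlap required 1 shared bp. Shares have exact Clopper-Pearson 95% intervals. Differences have Newcombe intervals, or Mantel-Haenszel values within 5 strata with Greenland-Robins intervals. No p-values were computed, because peaks of 1 library are not replicates. Comparison classes exclude peaks with Smad4, except the class of gained peaks with Smad4. The sites, lists and tests were chosen with earlier results of these data known; comparisons counted in TTF-1 peaks were added after seeing the data. Named sites are the 10 with the lowest Smad3 number, the 5 widest, the first 5 with A549, the 5 on the lowest TTF-1 0 h number, the fullest 1 Mb windows (the rule took 3; both that tied for the third place are given) and those nearest the limits of the rule. Genes, motifs and sequences were not analysed here, since sequence and annotation of that build were not used. Overlap counts of the code were tested against bedtools 2.31.1, and 6 of 6 were equal. The software was Python 3.11.15 with pandas 2.3.3, SciPy 1.17.1, NumPy 2.4.6 and matplotlib 3.10.9.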

Additional observations from a re-analysis of the deposited data

How the results depend on the processing

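Sharing was also defined by coverage of 50% of the Smad3 peak, by edges up to 500 bp apart or by centres up to 200 bp apart. The Smad3 siTTF-1 list was reduced to as many of its lowest-numbered peaks as the siControl list holds, or to its wider 50%. Autosomes only, no exclusion by Smad4, TTF-1 sites taken from the 1.5 h list, and strata were tried where they applied. In the list reduced by number 982 gained TTF-1-site peaks remained, with an A549 share of 7.03%, and in the wider 50% there were 860, with 8.02%; fewer peaks enter by construction. With centres within 200 bp the TTF-1 1.5 h share was 62.9%. The A549 difference from kept peaks fell to -0.41 points within strata of Smad3 peak number, a value that pools strata of both signs. The A549 difference from gained peaks without TTF-1, whose interval held 0 in every setting, changed sign to -0.31 points in the list reduced by number, -0.30 in the wider 50% and -0.12 without the Smad4 exclusion; the cause was not tested. The other 61 alternative values kept their direction and stayed on the same side of 0, or within the interval or 1.5 times of the value reported. Among these 61, taking TTF-1 sites from the 1.5 h list gave 1765 sites, against 2512 with the 0 h list. No paired analysis was possible because each condition had 1 library, and none could be left out. The depth of the libraries is unknown, so a site without a peak may hold binding below the calling limit.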
